A study of Mus musculus with 6 samples.

Results

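The 7 solute carrier families that move amino acids and short peptides across membranes were described in cultured AML12 cells, a hepatocyte line derived from mouse liver. Members were the protein-coding genes of the deposited count table named Slc1a, Slc6a, Slc7a, Slc15a, Slc36a, Slc38a or Slc43a followed by a number, without Slc7a1, Slc7a5 and Slc7a11. They numbered 61 of the 54532 genes in the table. Cells, with the genotype submitted as wild type, were sampled after 24 h in 2 groups of 3 libraries. One group carries the label PA/OA, a modelling reagent, with doses of 400 nM and 800 nM as submitted. The other was labelled PP, at 250 µg/ml, in a series whose title names peptides of Camellia oleifera meal. Whether the PP cells also received PA/OA is not stated, and untreated cells were not analysed here. No label ties the libraries to cultures of their own. The p-values therefore refer to the spread between these libraries alone, which may be technical.

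Amino acids enter cells through carriers that differ in substrate and driving force. The SLC1, SLC6 and SLC38 families draw mostly on the sodium gradient, SLC15 and SLC36 on protons, while most SLC7 carriers exchange one amino acid for another and need a partner chain to reach the membrane. Dipeptides and tripeptides are taken up at the plasma membrane by PepT1 (Slc15a1) and PepT2 (Slc15a2), best known from gut and kidney. Their relatives PHT1 (Slc15a4) and PHT2 (Slc15a3) sit in lysosomes and move histidine and peptides out to the cytosol. In liver, system N and system A carriers of the SLC38 family take up glutamine and alanine for urea and glucose synthesis.

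Library totals ran from 24113169 to 32560589 counts. Levels are given as CPM, counts scaled to 1e6 per library after TMM adjustment, and levels of different genes are compared as CPM per kb of the gene length in the table. Of 15 hepatocyte markers in the table, 3 held under 3 counts in every library (Apoa2, Fgb and Cyp2e1) and 8 reached the test. Of these 8, 2 were higher in PP (Krt8 and Krt18), and 4 lower (Alb, Apob, Hnf4a and Serpina1b). The other 2 were not past the test, and the median of the 8 was -0.61 on the log2 scale. Over all genes tested, 75.0% passed, 35.1% as higher and 39.9% as lower, with a median of -0.09. The bile duct counts below stand beside the same shares. The keratin genes Krt8 and Krt18 went from 1775 and 975 CPM in PA/OA to 1994 and 1730 in PP. Hnf4a, a hepatocyte transcription factor, went from 71.7 to 26.8 CPM and Apob from 246 to 75.8. Alb, the albumin gene, went from 12.2 to 9.90 CPM with overlapping groups (adjusted p = 0.0489, edgeR). Of 7 bile duct markers, 5 were measured and higher in PP, among them Krt19, from 2011 to 3513 CPM, while Epcam and Cftr had no count. Summed levels of macrophage markers ran from 3.66 to 4.22 CPM in PA/OA and from 27.1 to 30.0 in PP, where Cd68 alone had 27.3 CPM, with Adgre1, Clec4f and Timd4 at 0. Endothelial markers summed to at most 1.50 CPM and stellate cell and fibroblast markers to at most 5.47 CPM in any library. The part of these markers in the results was not tested. In such bulk samples, fewer cells of a type and less RNA per cell cannot be told apart.

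Of the 61 transporter genes, 25 reached 1 CPM in at least 1 group, 6 lay between 0.1 and 1 CPM, 7 were lower, and 23 had fewer than 3 counts in every library. Among the last, 14 genes had no count at all. They included Slc7a2, the low-affinity arginine carrier of liver, Slc38a4, a neutral amino acid carrier known from hepatocytes, and the monoamine carrier genes Slc6a2, Slc6a3 and Slc6a4. A count of 0 over a group allows a level of up to 0.0336 CPM in PA/OA and 0.0380 CPM in PP (3 counts over the 3 libraries, counting error only). The filter on low counts left 28 of the 61 genes for the test. Per kb, the highest levels over the 6 libraries were those of Slc38a2 (58.0 CPM per kb), Slc1a5 (36.6), Slc1a4 (33.4), Slc6a8 (28.9) and Slc6a6 (25.4). These carry small neutral amino acids, glutamine, alanine and serine, creatine and taurine. Slc38a2 stood above 96.7% of the protein-coding genes by this measure, and Slc6a6 above 91.3%.

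**Figure D1:**
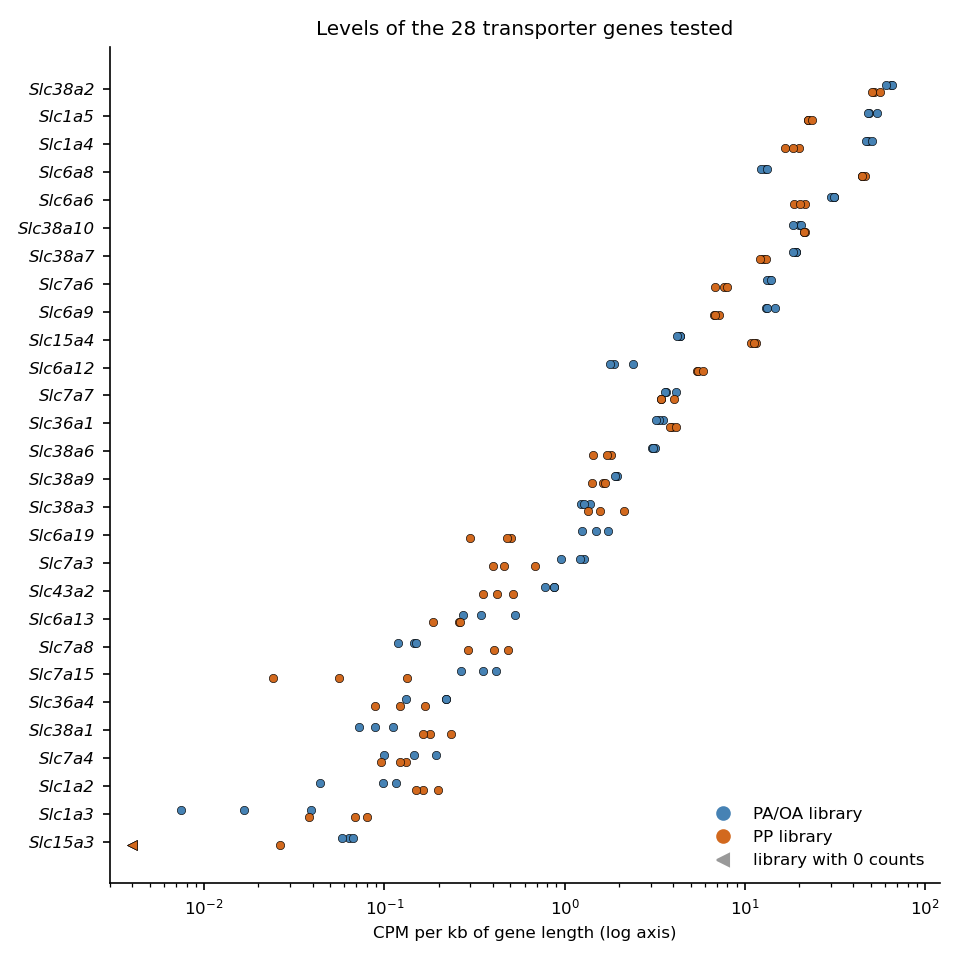
Level of each of the 28 tested transporter genes in each library, as CPM per kb of gene length on a log axis. Blue points are PA/OA and orange points PP libraries, and triangles mark libraries with 0 counts. The genes span from Slc38a2 at 58.0 CPM per kb over all libraries to Slc15a3 at 0.0359.

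Of these 28 genes, 9 rose in PP, 14 fell and 5 did not pass (edgeR quasi-likelihood test, Benjamini-Hochberg adjusted p below 0.05). Over all 15718 genes tested, 75.0% passed, 35.1% as higher and 39.9% as lower, so a passing member is the usual case in this comparison. The groups' libraries did not overlap for 23 of the 28 genes, where the share over all genes was 77.4%. Changes of at least 2-fold were found for 6 genes upwards (12.1% of all genes) and 6 downwards (24.5%). The median log2 fold change of the 28 genes was -0.46, beside -0.09 for all genes tested. Since the 28 passed a filter on counts, these figures do not speak for all 61. Of the 28, 24 passed the filter's level in every library. Slc15a3 and Slc7a15 passed it in the 3 PA/OA libraries and in 0 PP libraries, so the filter favoured a fall for both. Slc1a3 passed it in 1 PA/OA and 2 PP libraries, more of them in the group where it was called higher. Slc7a4, which did not pass the test, reached that level in 3 PA/OA and 2 PP libraries.

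**Figure D2:**
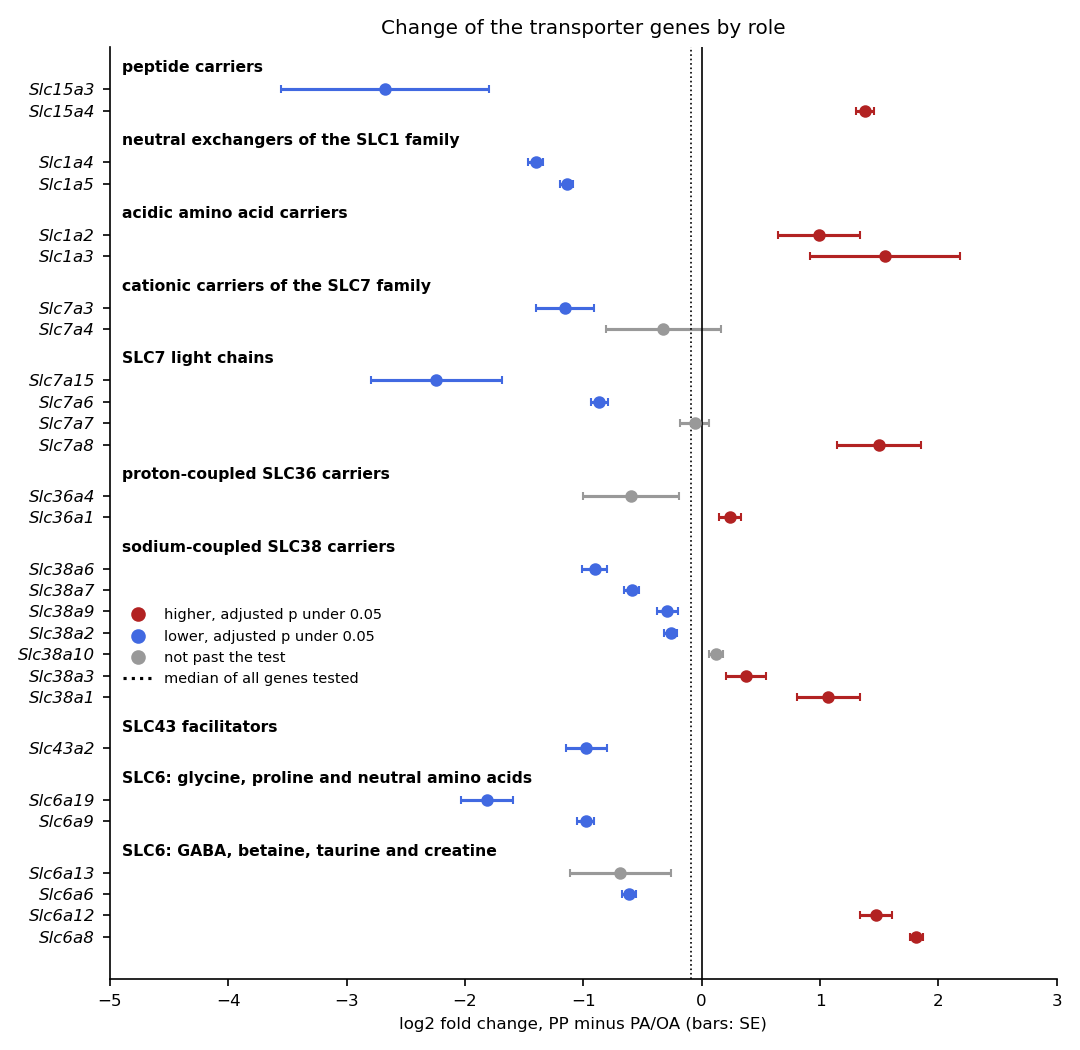
Log2 fold change (PP minus PA/OA) of the 28 tested genes with its SE, grouped by role and coloured by the outcome of the test; the dotted line is the median of all genes tested, -0.09. The values run from -2.68 for Slc15a3 to 1.81 for Slc6a8.

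Of the 5 SLC15 genes, AML12 cells expressed 1 at an appreciable level, Slc15a4, and it was higher in PP. Glmp and Mfsd1, which form a lysosomal dipeptide exporter outside this family, were also expressed. Mfsd1 had 34.6 CPM in PA/OA and 46.0 CPM in PP, and Glmp 63.6 and 118 CPM. Slc15a4 (PHT1, ENSMUSG00000029416, chromosome 5, 127595664 to 127632897, build mm10) had 728, 693 and 621 counts in PA/OA and 1450, 1581 and 1646 in PP. These correspond to 23.2, 23.1 and 22.2 CPM against 61.0, 57.2 and 59.9 CPM. The 3 PP libraries lay together, well above the 3 PA/OA libraries. The log2 fold change was 1.38 ± 0.07 (SE, n = 3 per group; adjusted p = 2.79e-13, edgeR), equal to 2.60-fold. It ran from 0.94 with library size only to 1.42 over 17 other settings, all past the test. Per kb, Slc15a4 ranked 10th of the 61 genes and stood above 75.8% of protein-coding genes.

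Slc15a3 (PHT2, chromosome 19, 10839727 to 10859362), the other lysosomal carrier of the family, was close to the limit of detection. It held 11, 11 and 9 counts in PA/OA, or 0.351, 0.366 and 0.322 CPM. In PP it held 0, 0 and 4 counts. It entered the test through PA/OA, the group where it was higher. The fitted log2 fold change was -2.68 ± 0.88 (adjusted p = 0.00913, edgeR). Without PP replicate 2 the call was lost (-2.09, adjusted p = 0.0610, edgeR), and without PP replicate 3, the library that held the 4 counts, the value was -6.30. With the trend of each library with abundance removed it was -0.36 (adjusted p = 0.760, edgeR). Of the exon bases of Slc15a3, 28.1% are shared with Tmem132a on the opposite strand, which went from 41.6 ± 5.96 to 27.8 ± 1.92 CPM. Without a stated use of strand, reads of both genes cannot be told apart there.

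The plasma membrane peptide carriers were not detectable or nearly so at this depth. Slc15a1 (PepT1, chromosome 14, 121459621 to 121505252) had no count in any of the 6 libraries. Slc15a2 (PepT2, chromosome 16, 36750177 to 36784962) had 4 counts in PP replicate 2 and 0 in the others. Slc15a5, a relative without an established substrate, had 2 counts in PA/OA replicate 2 and 0 in the others. None of the 3 could be tested. The summed level of the family thus followed Slc15a4, from 22.5 to 23.6 CPM in the PA/OA libraries and from 57.4 to 61.0 CPM in PP. Pumps that carry peptides into the endoplasmic reticulum or lysosome were also low. Tap1, Tap2 and Abcb9 held 0, 5 and 37 counts over PA/OA and 8, 27 and 29 over PP, and none was tested.

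**Figure D3:**
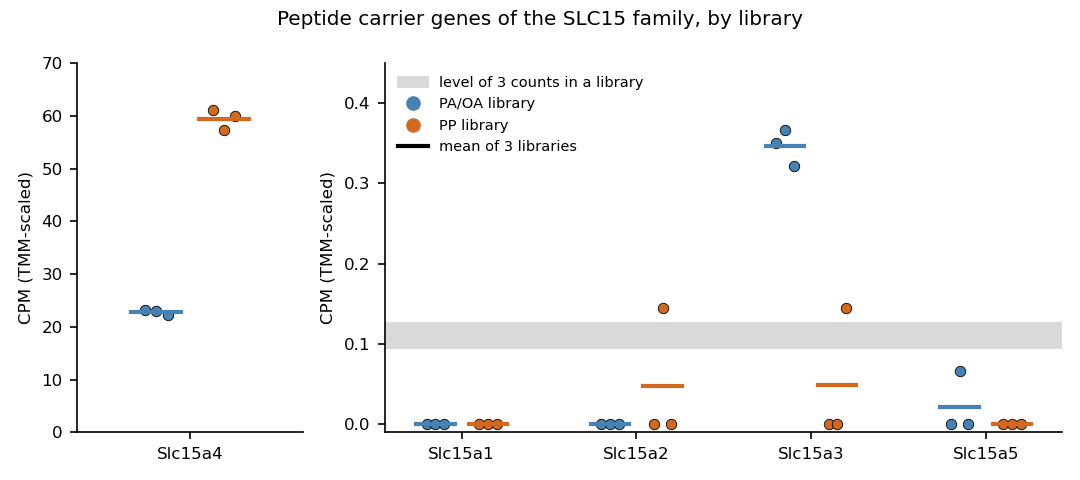
CPM of the 5 SLC15 genes in each library, with Slc15a4 on its own scale at the left; bars are means of 3 libraries and the grey band is the level of 3 counts in a library, from 0.0956 to 0.126 CPM. Slc15a4 sits near 23 CPM in PA/OA and near 59 CPM in PP, while the other 4 genes stay under 0.4 CPM.

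Both neutral exchangers of the SLC1 family were lower in PP. Slc1a5 (ASCT2, which brings glutamine in against other neutral amino acids; chromosome 7, 16781340 to 16798274) stood at 204, 201 and 225 CPM in PA/OA and 93.8, 93.6 and 98.1 CPM in PP. It fell by 1.14 ± 0.06 on the log2 scale (adjusted p = 9.20e-14, edgeR). Slc1a4 (ASCT1, an exchanger of alanine, serine and cysteine; chromosome 11, 20302180 to 20332713) stood at 189, 183 and 198 CPM in PA/OA and 77.9, 65.3 and 72.7 CPM in PP. It fell by 1.40 ± 0.06 (adjusted p = 1.55e-14, edgeR). For both genes every PP library was under every PA/OA library, and both calls held in all 17 other settings.

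Of the 5 acidic amino acid carriers, 2 were measured and both were called higher at low levels. Slc1a2 (GLT-1, the main glutamate carrier of astrocytes) had 18, 46 and 36 counts in PA/OA and 51, 72 and 54 in PP, and rose by 0.99 ± 0.35 on the log2 scale (adjusted p = 0.0136, edgeR). Without PA/OA replicate 1, the lowest library, it was 0.67 and not past the test (adjusted p = 0.0846, edgeR). Slc1a3 (GLAST) had 2, 10 and 4 counts against 14, 19 and 9, and its groups overlapped. Its log2 fold change of 1.55 ± 0.63 (adjusted p = 0.0314, edgeR) was not past the test without PA/OA replicate 1 or 3 or PP replicate 1 or 2, and was 2.34 without PA/OA replicate 2. With library size only neither gene passed (adjusted p = 0.148 and 0.112, edgeR). Slc1a1, the glutamate carrier EAAT3 of epithelia, had 2 counts in 1 library.

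Among the SLC7 light chains, which exchange amino acids once bound to a heavy chain, changes went both ways. Slc7a6 (y+LAT2, which exports arginine for neutral amino acids; chromosome 8, 106168857 to 106198706) was the highest per kb. It stood at 63.0, 60.6 and 63.8 CPM in PA/OA and 35.1, 31.3 and 36.6 CPM in PP, and fell by 0.86 ± 0.07 on the log2 scale (adjusted p = 7.81e-10, edgeR). Its relative Slc7a7 (y+LAT1) had 12.6 ± 0.979 and 12.0 ± 1.23 CPM (SD, n = 3), with overlapping groups and a difference of -0.06 ± 0.12 on the log2 scale. It did not pass (adjusted p = 0.685, edgeR), which does not show equal levels. Oxa1l, which shares exon bases with it on the opposite strand, went from 45.1 to 126 CPM. Slc7a8 (LAT2, a carrier of large and small neutral amino acids) rose from 23, 18 and 21 counts to 48, 40 and 67, by 1.50 ± 0.36 on the log2 scale (adjusted p = 0.000734, edgeR). Slc7a15, a relative of these chains, fell from 33, 24 and 35 counts to 4, 2 and 11. Its log2 fold change was -2.24 ± 0.55, and -3.07 without PP replicate 3, and the call was lost with the trend with abundance removed (-0.77, adjusted p = 0.229, edgeR). Slc7a9, Slc7a10, Slc7a12 and Slc7a13 held at most 4 counts in any library.

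Of the cationic carriers, Slc7a3 (CAT3; chromosome X, 101079210 to 101086020) fell from 4.85, 3.60 and 4.61 CPM to 1.51, 1.74 and 2.58 CPM. The change was -1.15 ± 0.25 on the log2 scale (adjusted p = 0.000260, edgeR), with no overlap between the groups. Slc7a4, a relative with no established transport function, had 13, 24 and 17 counts against 13, 14 and 11 and did not pass (adjusted p = 0.558, edgeR). Slc7a14, a lysosomal relative, held 2 counts over PA/OA and 6 over PP.

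With TMM scaling, 1 of the heavy chains that carry SLC7 light chains to the membrane was called higher and the other, at low counts, lower. Slc3a2 (4F2hc, the partner of Slc7a6, Slc7a7 and Slc7a8; chromosome 19, 8706882 to 8723369) stood at 552, 539 and 568 CPM in PA/OA and 843, 872 and 830 CPM in PP. Its log2 fold change was 0.62 ± 0.05 (adjusted p = 3.14e-10, edgeR), but -0.03 (adjusted p = 0.543, edgeR) with the trend with abundance removed. Per kb it lay at 157 CPM in PA/OA and 241 in PP, above every one of the 61 transporter genes. Slc3a1 (rBAT, the partner of Slc7a9 and Slc7a13; chromosome 17, 85028347 to 85064243) had 30, 26 and 32 counts against 4, 2 and 1, and passed the filter in PA/OA libraries alone. It fell by 3.40 ± 0.61 on the log2 scale (adjusted p = 3.42e-05, edgeR), and the value was -4.05 without PP replicate 1. On the opposite strand, Prepl shares 26.5% of its exon bases. Bsg (basigin, a membrane glycoprotein that accompanies monocarboxylate carriers) rose from 860 ± 19.0 to 3476 ± 171 CPM. Arl6ip5, which holds back EAAT3, was called higher by 0.33 on the log2 scale, but its sign turned with library size only and with the trend removed (-0.10 in both), and neither value passed. Cltrn, a partner of the SLC6 carriers of kidney, had no count.

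Among the sodium-coupled SLC38 genes, 2 rose, 4 fell and 1 did not pass, and the 4 others had fewer than 3 counts in every library. Over all genes tested, 35.1% were higher and 39.9% lower. Slc38a2 (SNAT2, the inducible system A carrier; chromosome 15, 96687392 to 96699730) had 570, 576 and 533 CPM in PA/OA and 458, 446 and 496 CPM in PP. The fall of 0.26 ± 0.06 on the log2 scale was small with TMM scaling, but the groups did not overlap (adjusted p = 0.000207, edgeR). The size depended on the setting. Slc38a2 ran from -0.87 to -0.21 over 17 other settings, all past the test. Its neighbour Slc38a1 (SNAT1), 44.5 kb away on the same strand, rose from 48, 58 and 35 counts to 73, 111 and 78, by 1.07 ± 0.27 on the log2 scale (adjusted p = 0.00116, edgeR). Slc38a6 fell by 0.90 ± 0.11, from 24.1 ± 0.476 to 12.9 ± 1.52 CPM. Slc38a10 had 126 ± 6.53 and 137 ± 1.32 CPM and did not pass (0.12, adjusted p = 0.0554, edgeR). Library size only turned it to lower (-0.31, adjusted p = 3.81e-05, edgeR), as it was with the trend with abundance removed (-0.27, adjusted p = 0.000185, edgeR). Slc38a3 (SNAT3, the system N glutamine carrier of liver) had 6.54, 7.29 and 6.72 CPM against 7.07, 8.29 and 11.2 CPM. The groups overlapped, and the call (0.38, adjusted p = 0.0486, edgeR) held in 4 of 17 other settings and turned in sign with library size only (-0.059). Without PP replicate 3, the highest library, it was 0.19 (adjusted p = 0.316, edgeR).

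Of the tested lysosomal members outside the SLC15 family, 2 fell, 1 rose and 1 did not pass. Slc38a7 (SNAT7, which exports glutamine and asparagine from lysosomes; chromosome 8, 95835920 to 95853539) stood at 79.4, 80.0 and 77.0 CPM in PA/OA and 52.3, 54.3 and 50.3 CPM in PP. It fell by 0.59 ± 0.06 on the log2 scale (adjusted p = 2.78e-08, edgeR). Slc38a9, the arginine sensor of the mTORC1 pathway, went from 32.2 ± 0.249 to 26.3 ± 2.32 CPM, a change of -0.29 ± 0.09 (adjusted p = 0.00475, edgeR). Without PP replicate 1, its lowest library, the change was -0.20 and not past the test (adjusted p = 0.0692, edgeR). Slc36a1 (PAT1, a proton-coupled exporter of small neutral amino acids; chromosome 11, 55204350 to 55236330) had 19.8, 18.7 and 18.1 CPM against 22.1, 21.5 and 23.2 CPM. The log2 fold change was 0.24 ± 0.10 (adjusted p = 0.0283, edgeR), and the call held in 9 of 17 other settings. Among the settings where it did not hold, it was lost without PA/OA replicate 2 or 3 or PP replicate 3. With library size only the value was -0.20. Slc36a4 (PAT4) had 1.24 ± 0.327 and 0.825 ± 0.258 CPM with overlapping groups and did not pass (adjusted p = 0.185, edgeR). Counting Slc15a3 and Slc15a4, the 7 members placed in lysosomes comprised 6 tested, of which 2 rose, 3 fell and 1 did not pass. Slc15a3, which entered through PA/OA alone, is 1 of the 3 that fell. The shares over all genes tested were 35.1% higher and 39.9% lower.

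Promoters were searched on both strands for CACGTG (the E-box bound by MYC, TFEB and clock factors), for TCACGTG (the E-box core of many lysosomal genes, which contains the first motif) and for TGATGNAA (the core of the element bound by C/EBP and ATF4 dimers at amino acid response genes). RefSeq windows of 300 bases from 250 before to 50 after the start were matched for 43 of the 61 genes (GRCm38.p6). CACGTG was found for 9 of these 43 genes (9 of their 63 windows) and TCACGTG for 4 (4 of the 63 windows). Among the 20 tested genes with a window, Slc36a1 and Slc38a7 held both. Over all 32851 promoter windows, 7.15% held the first and 3.77% the second. TGATGNAA was found for 4 of the 43 genes, the tested Slc1a4 and Slc7a7 and the untested Slc15a5 and Slc6a21. It lay in 5 of the 63 windows, beside 3.97% of all windows. The window for Slc15a4 lies within the deposited gene span and held none of the 3 motifs. The sequences below are those of the 3 genes among them that passed the test, shown so that the matches can be read beside the values above. CACGTG begins at -31 and -3 from the start in Slc36a1, which was called higher, and at -34 in Slc38a7, which was called lower. TGATGNAA begins at -4 in Slc1a4, on the reverse strand. Capitals mark the matches on either strand.
Slc36a1, chr11:55204090-55204389, plus strand: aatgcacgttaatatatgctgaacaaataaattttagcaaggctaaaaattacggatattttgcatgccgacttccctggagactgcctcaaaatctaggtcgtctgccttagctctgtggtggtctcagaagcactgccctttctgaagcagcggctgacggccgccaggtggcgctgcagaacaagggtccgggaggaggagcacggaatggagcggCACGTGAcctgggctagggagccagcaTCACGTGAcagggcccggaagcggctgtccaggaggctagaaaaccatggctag
Slc38a7, chr8:95853442-95853741, minus strand: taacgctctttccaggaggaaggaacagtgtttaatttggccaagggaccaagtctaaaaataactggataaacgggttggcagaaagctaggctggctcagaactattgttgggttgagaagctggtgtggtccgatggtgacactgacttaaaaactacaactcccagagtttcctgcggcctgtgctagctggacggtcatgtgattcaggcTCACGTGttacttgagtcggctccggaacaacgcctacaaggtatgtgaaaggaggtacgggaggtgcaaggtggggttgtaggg
Slc1a4, chr11:20332664-20332963, minus strand: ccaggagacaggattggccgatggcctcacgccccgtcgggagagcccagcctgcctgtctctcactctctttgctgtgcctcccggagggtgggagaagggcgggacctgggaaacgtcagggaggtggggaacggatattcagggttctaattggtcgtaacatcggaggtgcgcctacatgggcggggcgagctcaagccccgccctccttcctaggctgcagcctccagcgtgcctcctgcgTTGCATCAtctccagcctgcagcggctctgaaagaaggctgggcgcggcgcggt
A match is a description of these letters, and binding was not measured.

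The SLC6 carriers of creatine and betaine were higher in PP, and those of taurine, glycine and neutral amino acids lower. Slc6a8, the creatine carrier (chromosome X, 73673150 to 73682502), had 66.9, 64.1 and 69.2 CPM in PA/OA and 232, 240 and 232 CPM in PP. It rose by 1.81 ± 0.06 on the log2 scale (adjusted p = 2.67e-17, edgeR), 3.52-fold, the largest rise among the 28 genes with TMM scaling. Slc6a12 (BGT1, which takes up betaine and GABA; chromosome 6, 121343076 to 121365775) had 5.74, 5.43 and 7.29 CPM against 16.6, 16.7 and 17.8 CPM, and rose by 1.47 ± 0.14 on the log2 scale (adjusted p = 2.07e-09, edgeR). Both rises were past the test in all 17 other settings. Slc6a13 (GAT2, a GABA and taurine carrier of liver) lies 5.34 kb from Slc6a12 on the same strand. It had 25, 30 and 43 counts against 18, 15 and 21 and did not pass (-0.69, adjusted p = 0.151, edgeR).

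Slc6a6, the taurine carrier (chromosome 6, 91684053 to 91759066), stood at 263, 253 and 263 CPM in PA/OA and 182, 158 and 170 CPM in PP. It fell by 0.61 ± 0.06 on the log2 scale (adjusted p = 3.04e-09, edgeR). Slc6a9 (GlyT1, the glycine carrier; chromosome 4, 117834506 to 117875198) had 67.1, 67.9 and 75.9 CPM against 34.6, 37.1 and 35.2 CPM, a change of -0.98 ± 0.07 (adjusted p = 5.88e-11, edgeR). Ccdc24 on the opposite strand, which shares 27.8% of the exon bases of Slc6a9, held 120 counts over PA/OA and 2 over PP. Slc6a19 (B0AT1, the neutral amino acid carrier of gut and kidney; chromosome 13, 73679745 to 73704865) had 7.46, 8.76 and 6.25 CPM against 2.52, 2.39 and 1.49 CPM. It fell by 1.82 ± 0.22 on the log2 scale (adjusted p = 1.60e-07, edgeR). Slc6a18, 1.72 kb away, held 8 counts over PA/OA and 0 over PP and was not tested. Of the other SLC6 genes, Slc6a17 had 10 counts over PA/OA and 31 over PP. Slc6a11, a GABA carrier gene, had 2, 0 and 0 counts against 14, 4 and 9. Without the filter Slc6a11 passed as higher (adjusted p = 0.00521, edgeR), and Slc6a17 did not (adjusted p = 0.0763, edgeR).

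Of the SLC43 genes, Slc43a2 (LAT4, which lets branched-chain amino acids and phenylalanine out of cells; chromosome 11, 75531694 to 75577575) was the member measured. It stood at 8.80, 7.79 and 8.79 CPM in PA/OA and 4.21, 3.55 and 5.17 CPM in PP. The change was -0.97 ± 0.17 on the log2 scale (adjusted p = 3.18e-05, edgeR), with every PP library under every PA/OA library. Slc43a1 (LAT3), known from liver, held 4 counts in 1 PA/OA library and 0 in PP. Slc43a3, a carrier of purine nucleobases, held 5 counts over PA/OA and 6 over PP.

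Some members lie next to each other on the chromosome, and neighbours differed in level. In all, 11 pairs of members lay within 200 kb, among 16 genes. In the Slc36a1, Slc36a2 and Slc36a3 group on chromosome 11, Slc36a1 had 3448 counts over the 6 libraries, Slc36a2 had 2 and Slc36a3 had 0. In the pair Slc38a1 and Slc38a2, both were measured and their changes differed in sign (1.07 and -0.26).

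Scaling moved the split by direction. With library size only, log2 fold changes over all genes shifted from TMM by a median of -0.43, and 5 members were higher and 18 lower. Upper-quartile scaling shifted them by a median of -0.24, with 5 members higher and 15 lower. Removal of the trend with abundance shifted them by a median of 0.15, with 9 members higher and 13 lower. Slc15a4, Slc6a8, Slc6a12, Slc7a8 and Slc38a1 were called higher, and Slc1a4, Slc1a5, Slc6a6, Slc6a9, Slc6a19, Slc7a3, Slc7a6, Slc38a2, Slc38a6, Slc38a7 and Slc43a2 lower, under TMM and all 17 other settings.

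**Figure D4:**
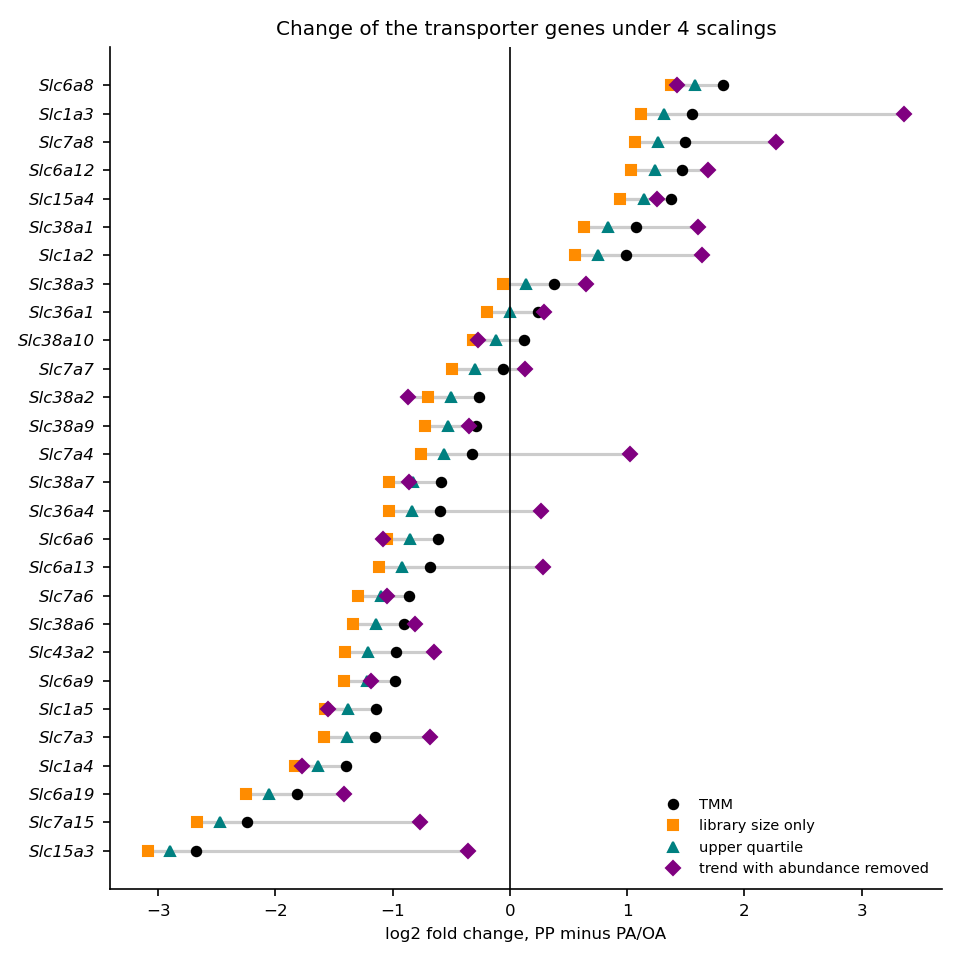
Log2 fold change (PP minus PA/OA) of the 28 tested genes under 4 scalings: TMM, library size only, upper quartile, and removal of each library's trend with abundance. Library size only and upper quartile move every gene to lower values. Removal of the trend moves low-count genes upwards, such as Slc15a3 from -2.68 to -0.36. It moves some abundant genes downwards, such as Slc38a10, whose sign turns.

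Peptidases release the amino acids that these carriers move. Their counts stand beside 75.0% of all tested genes called, 35.1% as higher and 39.9% as lower, and an all-gene median of -0.09. All 12 tested lysosomal peptidase genes rose, with a median log2 fold change of 0.95, and 9 of the 12 were higher with library size only, where 3235 of all 15718 genes were higher and 8910 lower. Among them the cathepsin gene Ctsb rose from 255 ± 3.92 to 779 ± 37.2 CPM, Ctsd from 197 ± 11.1 to 650 ± 34.2 CPM and Ctsz from 134 ± 13.0 to 351 ± 16.0 CPM. Of 15 cytosolic peptidase genes, 10 rose, 3 fell and 2 missed the threshold (median 0.48). Npepps, the puromycin-sensitive aminopeptidase, rose from 153 ± 11.9 to 472 ± 6.94 CPM, and Cndp2, a dipeptidase, from 207 ± 3.29 to 381 ± 10.6 CPM. Npepl1, a relative of leucine aminopeptidase, fell from 92.4 ± 5.23 to 28.1 ± 2.09 CPM. With library size only, 6 of the 15 were higher and 6 lower. Of 9 tested surface peptidase genes, 3 rose (Anpep, Mme and Lnpep), 2 fell (Xpnpep2 and Cpm) and 4 did not pass. Lnpep, which cuts peptide hormones, rose from 182 ± 15.9 to 312 ± 4.61 CPM. Xpnpep2, which cuts next to proline, fell from 25.3 ± 1.67 to 9.37 ± 1.06 CPM. Dpp4, the dipeptidyl peptidase of the hepatocyte surface, held 4 counts over PA/OA and 2 over PP. Removal of the trend with abundance lowered some abundant genes, such as Slc3a2 (0.62 to -0.03) and Arl6ip5 (0.33 to -0.10). Counts under that setting are not given here for the peptidases or the lysosomal carriers below. Their rises are therefore described for TMM and library size only.

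Of 8 lysosomal carriers outside the 7 families, 6 rose and 2 fell (median 0.41), beside 35.1% and 39.9% of all genes tested. Glmp, a subunit of the lysosomal dipeptide exporter formed with Mfsd1, rose from 63.6 ± 3.08 to 118 ± 4.24 CPM, and Mfsd1 itself rose by 0.41 on the log2 scale. Ctns, the cystine exporter, rose by 0.46 and Spns1, a lysosomal lysophospholipid carrier, by 0.45. Slc29a3, a nucleoside carrier, fell from 25.8 ± 0.525 to 12.9 ± 2.11 CPM and Pqlc2, the exporter of cationic amino acids, by 0.57 on the log2 scale. With library size only, 1 of the 8 was higher and 2 were lower, with a median of -0.03.

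**Figure D5:**
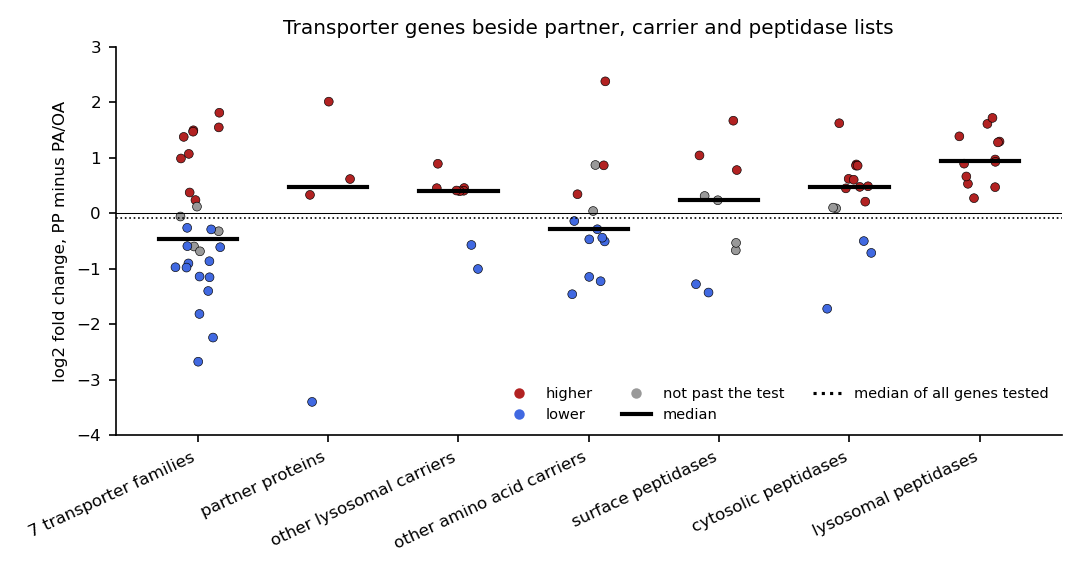
Log2 fold change (PP minus PA/OA) of every tested gene in the 7 transporter families and in 6 lists of partners, other carriers and peptidases, coloured by the outcome of the test; black bars are medians and the dotted line is the median of all genes tested. The lysosomal peptidases all lie above 0 (median 0.95), and the transporter families have their median at -0.46.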

How the data were processed

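Per the submitters' processing notes, featureCounts and build mm10 lie behind the deposited raw counts (1 row per gene); the notes list DESeq2 1.16.1 with no stated use. Neither aligner nor annotation nor use of strand is given in the sources used here. The gene length in the deposited table, another value of the authors, equalled the summed exon length in GENCODE M21 for 59 of 61 members. Treatment labels gave the groups, and titles the replicate numbers.

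Counts were fitted in R 4.3.3 with edgeR 4.0.16 (filterByExpr, TMM, glmQLFit, glmQLFTest, two-sided, Benjamini-Hochberg over all 15718 genes tested, threshold 0.05). Each SE is the absolute log2 fold change divided by the square root of F, and SDs are over 3 libraries. Alternatives used DESeq2 1.42.0, limma 3.58.1 (voom) and other scalings and filters. Scripts were tested on simulated data. Among member counts from 1 to 20, 71.0% of 62 were even, and limits on counts, which treat them as single reads, may be too narrow. Exon overlaps were taken from GENCODE M21 (GRCm38).

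Members and lists were chosen with earlier results of these data known. Genes named were the SLC15 members, the heavy chains, the 3 highest per role, members changed at least 2-fold or with a call that depended on a setting, and up to 3 per list with the smallest p. Others named (markers, Mme, Cpm, Dpp4, Ctns, Mfsd1, Pqlc2, Slc25a12, Slc25a13, Slc25a15, Slc25a29, untested members) were chosen after their values were seen. Some items are not reported here.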

Additional observations from a re-analysis of the deposited data

How the results depend on the processing

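Of the 28 genes tested, 16 kept their direction and their side of the threshold under all alternatives that could test them, and 20 did so without each single library. With library size only the median log2 fold change of the members was -0.89, with upper-quartile scaling -0.69, without a filter -0.25 (47 members tested), with at least 1 CPM in 3 libraries -0.33, with the trend with abundance removed -0.31 and with halved counts -0.63. Leaving out each library gave medians from -0.48 to -0.28, 6 to 9 members higher and 13 or 14 lower. Members higher were 5 with library size only and with upper-quartile scaling. The sign turned with library size only for Slc36a1 (-0.20), Slc38a3 (-0.059), Slc38a10 (-0.31) and Arl6ip5 (-0.10), with upper-quartile scaling for Slc38a10 (-0.12), and with the trend removed for Slc38a10 (-0.27), Slc36a4 (0.27), Slc6a13 (0.28), Slc7a4 (1.03), Slc7a7 (0.13), Slc3a2 (-0.033) and Arl6ip5 (-0.10). Slc7a7 ranged from -0.13 to 0.011 without single libraries. The causes were not tested.

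Same-numbered libraries of the groups did not deviate together (correlations 0.01, 0.00 and -0.02). With 3 libraries per group, this cannot show whether the numbers pair samples. With the replicate block, 7 members were higher and 14 lower (median -0.45), and Slc1a3 and Slc38a3 were not past the test (adjusted p = 0.0636 and 0.0653, edgeR). Depth limits the 33 members not tested and those under 1 CPM, above all Slc15a3 and Slc1a3.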

Other observations

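Of 13 tested amino acid carriers outside the 7 families, most of them mitochondrial, 3 rose, 8 fell and 2 missed the threshold (median -0.29 on the log2 scale). The shares over all genes tested were 35.1% higher and 39.9% lower (median -0.09). Sfxn1, the mitochondrial serine carrier, fell from 181 ± 3.18 to 134 ± 1.37 CPM, and Slc25a38, the mitochondrial glycine carrier used in heme synthesis, from 14.3 ± 1.27 to 5.23 ± 1.18 CPM. Slc25a15, the ornithine carrier of the urea cycle, fell by 0.51 on the log2 scale and Slc25a29, a carrier of basic amino acids, by 1.22. Slc25a39, the mitochondrial glutathione carrier, rose from 269 ± 13.1 to 491 ± 17.6 CPM, and Slc25a13, an aspartate and glutamate carrier, rose by 0.34. Its relative Slc25a12 had 60.2 ± 2.84 and 61.9 ± 3.82 CPM and did not pass (adjusted p = 0.599, edgeR). With library size only, 2 of the 13 were higher and 9 lower.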
